A study of Mus musculus with 42 samples.

Results

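The collagen, laminin and basement membrane genes were 59 of the 24083 genes of a mouse embryo expression table. They were chosen by symbol: 44 collagen chains, 11 laminin chains, the nidogens Nid1 and Nid2, Hspg2 (the proteoglycan perlecan) and Sparc, a secreted protein that binds collagen. The values came from 42 embryo samples made with Smart-seq2, a full-length cDNA method that does not mark strand. The wild-type embryos were female offspring of C57BL/6N X PWK/PhJ crosses, at the 8-cell stage (3 samples), the morula stage (3), embryonic day (E) 3.5 inner cell mass (ICM, 2), E3.5 trophectoderm (TE, 3), E6.5 epiblast (Epi, 1), E6.5 visceral endoderm (VE, 3), E6.5 extraembryonic ectoderm (ExE, 2) and E9.5 yolk sac (1). A separate table, with all 59 genes among 23986, held Xp XRRa KO female morulae (4), in which XRRa, a region of the paternal X, is deleted, control female morulae (3) and control male morulae (4), all of the same cross. A table of 1052 X-linked genes held 13 female E7.5 ExE samples named EedmNull, from Eedfl/fl;Gdf9-Cre mothers and WT PWK/PhJ fathers; Gdf9-Cre acts in the oocyte, so Eed, a Polycomb gene, was deleted in the mother's germ line. PWK/PhJ was the father in each cross, so effects of strain and of parental origin cannot be told apart.

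Basement membranes are thin sheets of matrix that underlie epithelia. Laminins, trimers of an alpha, a beta and a gamma chain, assemble first at the cell surface, and collagen IV then forms a covalently linked network that nidogens and perlecan tie to the laminin layer. In the mouse embryo the primitive endoderm and the visceral endoderm that derives from it lie on such a membrane next to the epiblast, and parietal endoderm lays down the thick Reichert's membrane. Fibrillar collagens, by contrast, are the typical product of mesenchyme.

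Levels are given as total FPKM, which is maternal plus paternal fragments per kilobase scaled to the library. FPKM is per length, but where only reads over strain differences are counted it also depends on how many such sites a gene has, so levels of different genes are set side by side as deposited values. Each group of the stage and morula tables was a single pooled column per allele, with no spread between samples and hence no test of group differences. A gene counted as higher or lower when it reached 5 FPKM in 1 of the columns compared and differed at least 2-fold on FPKM plus 1. A gene could thus enter a comparison through the 1 column where it was high, so counts of genes called are a description and not a test. Read depth was unknown; all genes at 1 FPKM or more numbered 7178 to 9164 in the other stage columns and 4163 in the yolk sac. A 0 need not mean that a gene was off, since it may be that only reads that distinguish the alleles were counted. The widely expressed gene Vim was listed at 0 in all 8 stage columns, and no ratio is given against a 0. The labels were checked against marker genes. The VE column had 2748 FPKM over 6 visceral endoderm markers, against 238 FPKM in ExE and 3.16 FPKM in Epi. The ExE markers (5 genes) summed to 312 FPKM in ExE, against 60.2 FPKM in VE, nearly all of it Eomes. The yolk sac column had all 6 visceral endoderm markers (6041 FPKM) together with the primitive blood globin Hbb-bh1 at 313 FPKM, while the other endothelial and blood markers were at or under 0.575 FPKM.

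Few of the 59 genes were expressed, and more of them were highest in visceral endoderm than in any other stage column. 21 reached 1 FPKM in a stage column, 13 of these reached 5 FPKM, and 38 stayed under 1 FPKM in all 8 columns, with Col28a1 and Lamb3 listed at 0 throughout. By role, the genes at 1 FPKM or more were 2 of 6 collagen IV chains, 4 of 5 laminin alpha chains, 2 of 3 beta chains, 1 of 3 gamma chains, 3 of the 4 linker and matricellular genes, 5 of 11 fibrillar collagens and none of the 6 collagen VI chains. The highest stage level lay in VE for 9 of the 21 genes, in yolk sac for 5, in morula, ICM and TE for 2 each and in Epi for 1, but in 8-cell embryos or ExE for 0. The share of all genes that were highest in each column was not computed. By column, 1 gene was at 1 FPKM in 8-cell embryos, 10 in morula, 10 in ICM, 10 in TE, 7 in Epi, 12 in VE, 10 in ExE and 11 in yolk sac. These counts were 20.3% of the 59 genes in VE and 18.6% in yolk sac. Over all genes, 36.5% were at 1 FPKM in VE and 17.3% in yolk sac. The 59 genes were below the share of all genes in every stage column but yolk sac, where they were close to it. These are bulk samples, in which fewer cells of a type and less RNA per cell cannot be told apart.

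**Figure D1:**
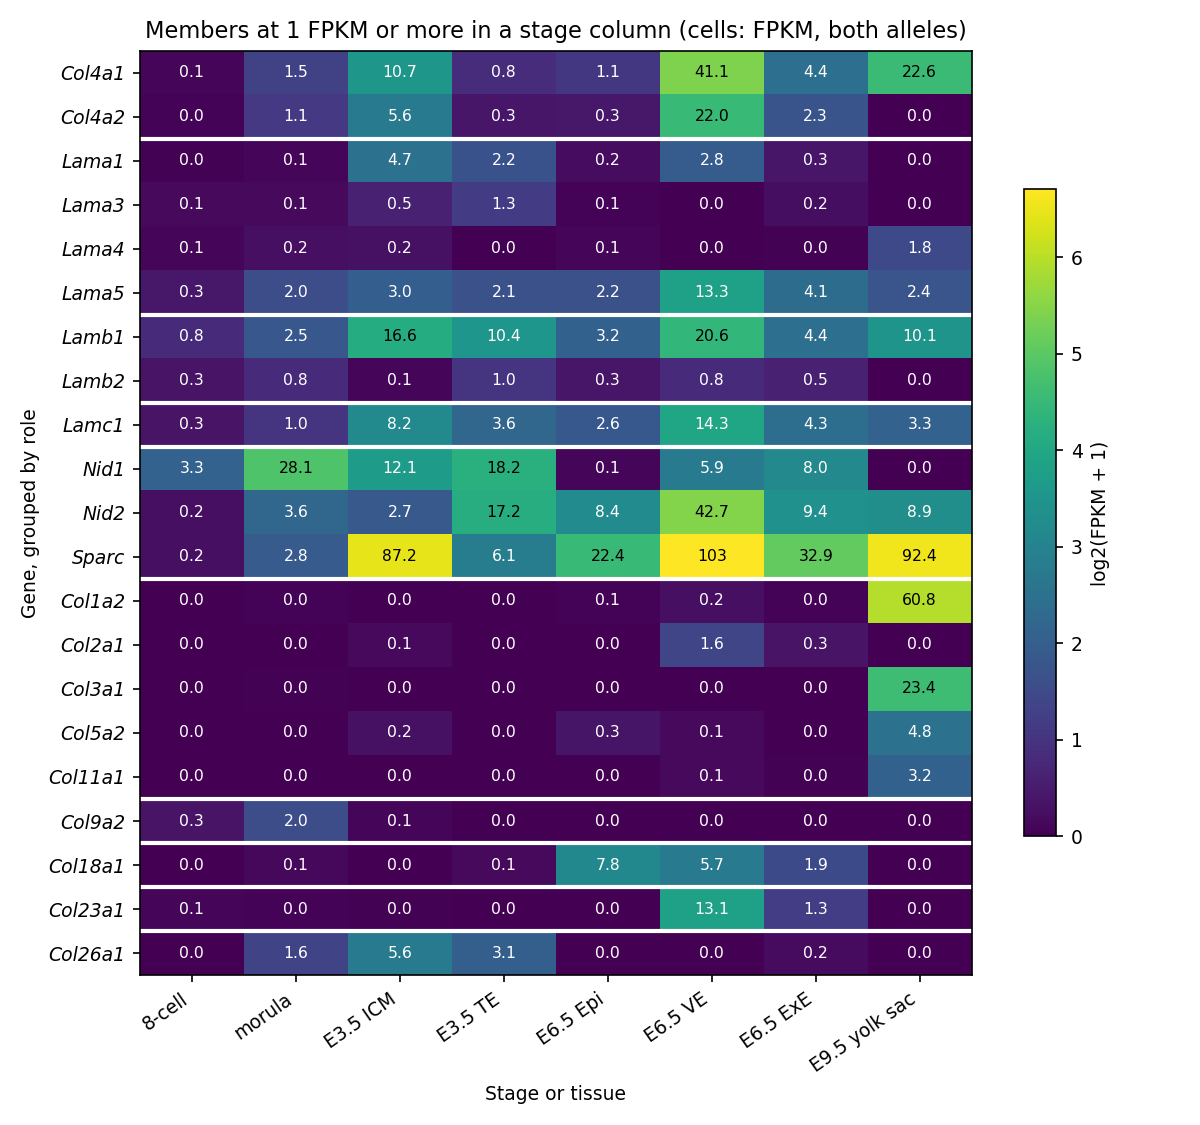
Total FPKM of the 21 genes that reached 1 FPKM in a stage column, by stage or tissue (columns) and role (blocks of rows separated by white lines); colour is log2(FPKM + 1) and the number in each cell is the FPKM of a pooled column. The VE column holds the highest level of 9 genes. The fibrillar collagens Col1a2 and Col3a1 are at 60.8 and 23.4 FPKM in the yolk sac, a column of 1 sample.

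Collagen IV was represented by Col4a1 and Col4a2, the chains of its most widespread form. Both lie on chromosome 8 and are transcribed away from each other from a common region. The promoter windows of RefSeq (build GRCm38.p6, 250 bases before to 50 after the start; the expression files used the older build mm9) show how close they are: the starts lie 21 bases apart, and the windows share the 78 bases chr8:11312777-11312854, printed in capitals, which each gene reads on the opposite strand. The Col4a1 window is chr8:11312777-11313076 on the minus strand and the Col4a2 window is chr8:11312555-11312854 on the plus strand.
Col4a1: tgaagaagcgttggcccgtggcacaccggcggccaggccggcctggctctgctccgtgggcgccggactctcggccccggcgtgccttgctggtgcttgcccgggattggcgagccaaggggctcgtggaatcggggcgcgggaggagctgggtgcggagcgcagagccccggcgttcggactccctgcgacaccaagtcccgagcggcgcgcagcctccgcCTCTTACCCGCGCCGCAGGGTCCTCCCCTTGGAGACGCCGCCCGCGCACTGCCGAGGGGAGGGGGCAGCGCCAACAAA
Col4a2: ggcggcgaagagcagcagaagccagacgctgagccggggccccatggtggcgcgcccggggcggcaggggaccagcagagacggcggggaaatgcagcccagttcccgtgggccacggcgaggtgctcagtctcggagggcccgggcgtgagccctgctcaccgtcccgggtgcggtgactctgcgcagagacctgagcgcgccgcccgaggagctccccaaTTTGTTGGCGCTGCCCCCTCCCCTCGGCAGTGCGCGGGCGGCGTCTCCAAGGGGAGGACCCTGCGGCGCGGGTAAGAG
Each window held a CCAAT box (CCAAT) and a GC box (GGGCGG), counted on both strands, but neither a TATA box (TATAAA) nor the GATA motif AGATAA. Of the 43 genes of the 59 found in the RefSeq table, with 47 windows, 15 windows held CCAAT, 28 GGGCGG, 5 TATAAA and 2 AGATAA. Over all 32851 windows the shares were 37.4% for CCAAT, 35.7% for GGGCGG, 13.6% for TATAAA and 11.2% for AGATAA. The Col4a1 and Col4a2 windows had 37 and 33 CpG dinucleotides, against a median of 7 over all windows. A motif match is a string of letters and not a binding site.

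Col4a1 was at 0.0670 FPKM in 8-cell embryos, 1.49 in morula, 10.7 in ICM, 0.795 in TE, 1.13 in Epi, 41.1 in VE, 4.44 in ExE and 22.6 FPKM in yolk sac. Col4a2 was at 0.0386 FPKM in 8-cell embryos, 1.15 in morula, 5.62 in ICM, 0.335 in TE, 0.339 in Epi, 22.0 in VE and 2.35 FPKM in ExE, and was listed at 0 in yolk sac. Both genes were thus highest in VE, next in ICM among the columns up to E6.5, and low in TE and Epi. In the 7 columns of either table where both reached 1 FPKM, the level of Col4a1 was 1.30 to 1.90 times that of Col4a2, with a median of 1.79. The ratio was 1.90 in ICM, 1.87 in VE and 1.89 in ExE. In TE and Epi, where Col4a2 was under 1 FPKM, Col4a1 was at more than 2 times its level. Over all 8 stage columns, with the 0 of Col4a2 in yolk sac, log2(FPKM + 1) of these genes had a Pearson r of 0.67. Their Spearman rho was 0.50. The other collagen IV chains, which form more restricted networks, were at most 0.390 FPKM (Col4a3, yolk sac). They include the X-linked neighbours Col4a5 and Col4a6, whose starts lie 1343 bases apart and whose RefSeq windows do not overlap.

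**Figure D2:**
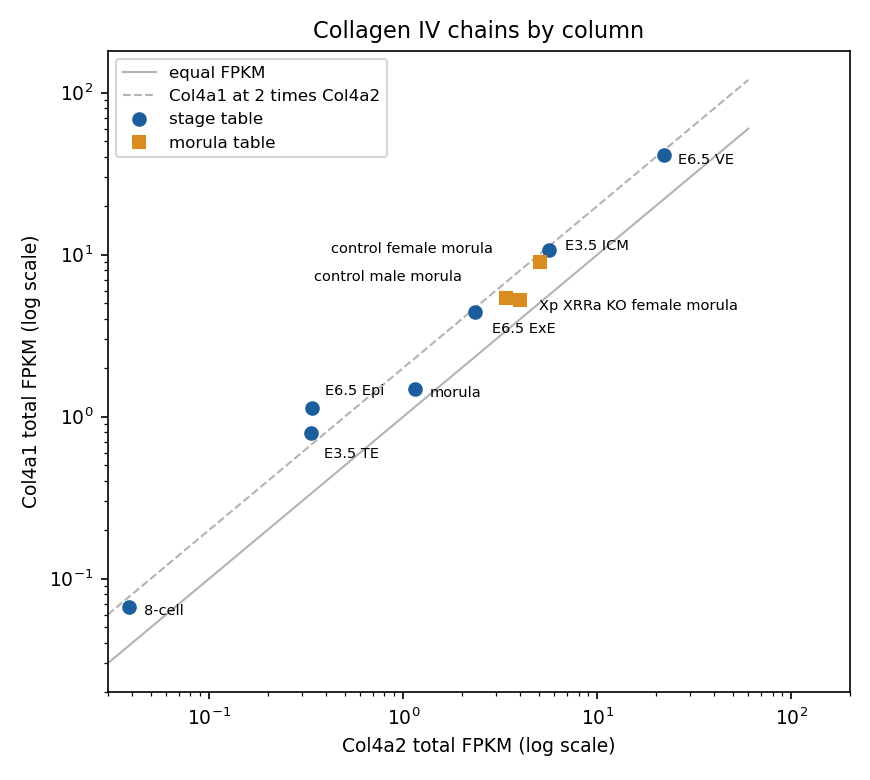
Total FPKM of Col4a1 against Col4a2 on log axes, a point per pooled column of the stage table (circles) and the morula table (squares); the solid line marks equal FPKM and the dashed line Col4a1 at 2 times Col4a2. The yolk sac is not drawn because Col4a2 was listed at 0 there; the points run between the lines from 8-cell embryos to VE, except that TE and Epi, where Col4a2 was under 1 FPKM, lie above the dashed line.

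Among laminins, the beta chain Lamb1, which most early laminin trimers share, had the highest level of any chain in all 8 stage columns. The gamma chain Lamc1, likewise shared, came next from ICM on, while in 8-cell embryos and morula the alpha chain Lama5 was above it. Lamb1 was at 0.777 FPKM in 8-cell embryos, 2.55 in morula, 16.6 in ICM, 10.4 in TE, 3.20 in Epi, 20.6 in VE, 4.44 in ExE and 10.1 FPKM in yolk sac. Lamc1 was at 0.272 FPKM in 8-cell embryos, 1.003 in morula, 8.21 in ICM, 3.62 in TE, 2.61 in Epi, 14.3 in VE, 4.32 in ExE and 3.31 FPKM in yolk sac. The levels of these chains moved alike: over the 8 stage columns, log2(FPKM + 1) had a Pearson r of 0.92 and a Spearman rho of 0.93, given as a description of columns that share libraries and scaling with each other's genes.

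The alpha chain differed between tissues. Lama1, the alpha chain of laminin-111, was at 0.0241 FPKM in 8-cell embryos, 0.0700 in morula, 4.67 in ICM, 2.24 in TE, 0.158 in Epi, 2.85 in VE and 0.322 FPKM in ExE, and was listed at 0 in yolk sac. Lama5, the alpha chain of laminin-511, was at 0.344 FPKM in 8-cell embryos, 1.98 in morula, 3.002 in ICM, 2.15 in TE, 2.18 in Epi, 13.3 in VE, 4.12 in ExE and 2.43 FPKM in yolk sac. Lama1 therefore exceeded Lama5 in ICM and TE, narrowly in TE, and Lama5 exceeded Lama1 in the other 6 stage columns. Lama3, an alpha chain of epithelial basement membranes, peaked at 1.26 FPKM in TE. Lama4, a chain of endothelial basement membranes, was at 1.79 FPKM in yolk sac and otherwise under 1 FPKM, and Lamb2 peaked at 1.004 FPKM in TE. Summed over all chains of a kind, ICM had 8.52 FPKM of alpha, 16.7 of beta and 8.64 FPKM of gamma chains, and VE had 16.2 of alpha, 21.3 of beta and 14.5 FPKM of gamma chains.

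The nidogens, which bridge laminin and collagen IV, had different courses. Nid1 was at 3.33 FPKM in 8-cell embryos, 28.1 in morula, 12.1 in ICM, 18.2 in TE, 0.0784 in Epi, 5.89 in VE and 7.98 FPKM in ExE, and was listed at 0 in yolk sac. Nid2 was at 0.203 FPKM in 8-cell embryos, 3.61 in morula, 2.68 in ICM, 17.2 in TE, 8.36 in Epi, 42.7 in VE, 9.42 in ExE and 8.90 FPKM in yolk sac. Nid1 was the only one of the 59 genes at 1 FPKM in 8-cell embryos and was highest in morula, whereas Nid2 was highest in VE and stood well above Nid1 in Epi. Hspg2 stayed between 0 and 0.863 FPKM, highest in ExE.

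Sparc, which binds collagen IV, reached the highest level of all 59 genes. It was at 0.214 FPKM in 8-cell embryos, 2.81 in morula, 87.2 in ICM, 6.09 in TE, 22.4 in Epi, 103 in VE, 32.9 in ExE and 92.4 FPKM in yolk sac. Its level followed that of Col4a1 over the 8 stage columns (Pearson r 0.89 and Spearman rho 0.93 of log2(FPKM + 1), a description), with Epi and ExE as further columns of high Sparc. The RefSeq promoter windows of Sparc (chr11:55420031-55420330, minus strand) and Nid1 (chr13:13437352-13437651, plus strand, GRCm38.p6) are shown because Sparc had a course like that of Col4a1 and Nid1 did not. Capitals mark the matches to the 4 motifs on either strand.
Sparc: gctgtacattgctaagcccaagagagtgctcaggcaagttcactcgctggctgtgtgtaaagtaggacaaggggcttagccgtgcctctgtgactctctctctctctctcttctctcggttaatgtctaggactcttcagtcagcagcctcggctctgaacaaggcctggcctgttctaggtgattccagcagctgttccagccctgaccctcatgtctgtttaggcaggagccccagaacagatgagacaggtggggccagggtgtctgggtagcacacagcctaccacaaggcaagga
Nid1: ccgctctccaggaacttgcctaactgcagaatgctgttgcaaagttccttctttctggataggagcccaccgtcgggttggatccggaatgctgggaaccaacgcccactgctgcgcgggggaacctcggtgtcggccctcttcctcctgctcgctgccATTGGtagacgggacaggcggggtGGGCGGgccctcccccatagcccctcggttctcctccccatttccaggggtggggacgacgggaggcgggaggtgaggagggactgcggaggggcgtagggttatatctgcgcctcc
The Sparc window had 4 CpG dinucleotides, a GC content of 55.3% and none of the 4 motifs, so it is all in lower case. The Nid1 window had 20 CpG dinucleotides, a GC content of 64.7%, a CCAAT box on the minus strand and a GC box on the plus strand. The Col4a1 window, with a GC content of 74.0%, and the Sparc window were thus unlike in these features although the levels of both genes ran together.

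The other collagens were each expressed in few tissues. Col18a1, the basement membrane collagen that is the source of endostatin, was at 7.79 FPKM in Epi, 5.66 in VE and 1.86 FPKM in ExE and at most 0.125 FPKM in the other stage columns. Col23a1, a membrane-spanning collagen, was at 13.1 FPKM in VE, 1.32 in ExE and at most 0.0937 FPKM elsewhere. Col26a1 was a gene of the preimplantation columns, at 1.62 FPKM in morula, 5.60 in ICM and 3.10 FPKM in TE, and was listed at 0 in 8-cell embryos, Epi, VE and yolk sac. Col9a2, a fibril-associated chain, peaked at 1.97 FPKM in morula and Col2a1, the cartilage collagen, at 1.63 FPKM in VE.

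Of the 5 fibrillar collagens that reached 1 FPKM, 4 were highest in the yolk sac. Col1a2 was at 60.8 FPKM there and at most 0.214 FPKM in the other stage columns. Col3a1 was at 23.4 FPKM, Col5a2 at 4.80 and Col11a1 at 3.23 FPKM in the yolk sac. This column was 1 sample of unknown depth. The paternal shares of its autosomal genes spread widely (middle range 11.1% to 80.0%), so these levels too may be imprecise. Col1a1, whose product pairs with that of Col1a2 in type I collagen, was listed at 0 in the same column. Mesoderm and mesenchyme markers were low in the yolk sac, with Twist1 at 4.86 FPKM and the other 4 of the 5 listed at 0, and Dcn, a gene of fibroblasts and decidua, was at 5.82 FPKM. The part of mesenchymal cells in these values was not tested.

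From 8-cell to morula, 1 of the 59 genes could be compared at 5 FPKM and it was higher: Nid1, with a log2 ratio of 2.75 on FPKM plus 1. Over all genes tested, 31.9% were at least 2-fold higher in morula, and 6.21% were lower, so a count of 1 gene says little against that background. Of the 15 collagen processing genes, 7 were compared and 5 were higher, among them the lysyl hydroxylase gene Plod1 (42.6 FPKM in morula, 5.97 in 8-cell embryos) and the prolyl 4-hydroxylase subunit gene P4ha1 (29.9 FPKM in morula, 6.31 in 8-cell embryos). Of the 16 matrix receptors, 5 were compared and 3 were higher, among them the laminin receptor Dag1 (7.13 FPKM in morula, 0.819 in 8-cell embryos) and the integrin subunit Itgb1 (32.7 FPKM in morula, 7.75 in 8-cell embryos). Of the 16 other basement membrane proteins, 1 was compared and it was higher: Tinagl1, a relative of a kidney basement membrane antigen (36.5 FPKM in morula, 1.59 in 8-cell embryos).

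In the blastocyst, Sparc and chains of laminin and collagen IV were higher in the ICM column than in the morula column of the same table. Of 7 genes compared, 6 were higher in ICM, against 18.2% of all genes, and Nid1 was lower, against 10.4% of all genes. In morula only Nid1 reached 5 FPKM, so the 6 higher genes entered through ICM, where they were high. Sparc had the largest log2 ratio (4.54), followed by Lamb1 (2.31), Col4a1 (2.23), Lamc1 (2.201), Col4a2 (1.62) and Col26a1 (1.34), while Nid1 was at -1.15. These ratios rest on 1 morula column: control female morulae of the separately normalized morula table had 9.05 FPKM of Col4a1, 5.05 of Col4a2 and 7.65 FPKM of Nid1, beside 1.49, 1.15 and 28.1 FPKM in the morula column used here. In TE over morula, 2 of 4 genes were higher, against 22.0% of all genes, namely Nid2 (1.98) and Lamb1 (1.68), and none was lower, against 17.3%. Sparc (0.90) and Nid1 (-0.60) lay between the limits there.

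Between ICM and TE, Sparc, the collagen IV chains and Nid2 were the genes that differed most. Of 8 genes compared, 3 were higher in ICM (13% of all genes) and 1 was lower (11.8% of all genes). The log2 ratios of ICM over TE were 3.64 for Sparc, 2.70 for Col4a1, 2.31 for Col4a2 and -2.31 for Nid2. Lamc1 fell just short of 2-fold at 0.996, and Col26a1 (0.69), Lamb1 (0.63) and Nid1 (-0.55) lay between the limits. Primitive endoderm markers (5 genes) summed to 59.6 FPKM in ICM, with 4 at 1 FPKM or more, against 11.3 FPKM in TE, with 1 such gene. Trophectoderm markers (5 genes, all at 1 FPKM or more in both columns) summed to 1216 FPKM in ICM and 3591 FPKM in TE, so the ICM column held 33.9% of the TE level. The part of these cell types in the differences was not tested.

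Of 15 genes of collagen processing, 11 were compared, 5 were higher in ICM than in TE and 0 were lower, against 13% of all genes higher and 11.8% lower. Serpinh1, the collagen chaperone HSP47, was at 31.6 FPKM in ICM and 0.104 FPKM in TE (log2 ratio 4.89). The prolyl 3-hydroxylase gene Lepre1 was at 5.60 FPKM in ICM and 0.276 in TE, and the lysyl hydroxylase gene Plod2 was at 11.3 FPKM in ICM and 1.47 in TE. Of the 15 crosslinking and cleavage genes, 1 was compared, the metalloproteinase inhibitor Timp1, which was higher in ICM (39.3 FPKM, 0.743 in TE). Of the 16 other basement membrane proteins, fibronectin (Fn1, 12.4 FPKM in ICM and 0.106 in TE) was higher, and Tinagl1 (31.0 FPKM in ICM, 256 in TE) and Fbln1 (16.5 FPKM in ICM, 44.2 in TE) were lower in ICM.

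In the comparisons from E3.5 to E6.5, most genes called were lower in Epi than in ICM but higher in VE than in ICM. Among the genes called in both, only Col4a1 and Col4a2 went in opposite directions. Nid2 and Col18a1 were higher in both, and Col26a1 was lower in both. In Epi over ICM, 7 of 9 genes were lower, against 28.3% of all genes, and 2 were higher, against 14.2%. The lower genes were Nid1 (log2 ratio -3.60), Col4a1 (-2.45), Col4a2 (-2.31), Lamb1 (-2.07), Sparc (-1.92), Lamc1 (-1.35) and Col26a1, which was listed at 0 in Epi. The higher genes were Nid2 (1.35) and Col18a1, listed at 0 in ICM. In VE over ICM, 6 of 11 genes were higher, against 16.6% of all genes, and 1 was lower, against 30.9%. The higher ones were Col23a1 (3.78), Nid2 (3.57), Col4a1 (1.85), Lama5 (1.84), Col4a2 (1.80) and Col18a1, listed at 0 in ICM, and the lower one was Col26a1, listed at 0 in VE. By contrast, Sparc (0.24), Lamb1 (0.29) and Lamc1 (0.73), already high in ICM, lay between the limits. These comparisons share the ICM column. Of the 7 genes lower in Epi, only Sparc also reached 5 FPKM in Epi, so the others entered through ICM, where they were high. Of the 6 genes higher in VE, only Col4a1 and Col4a2 also reached 5 FPKM in ICM. In ExE over TE, 1 of 4 genes was higher (Sparc, 2.26; 22.6% of all genes) and 2 were lower (Nid1, -1.10, and Lamb1, -1.07; 16.8% of all genes).

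Among the E6.5 tissues, VE stood above both others for most of the genes compared. In VE over Epi, 9 of 10 genes were higher, against 17.7% of all genes, and 0 were lower, against 18.7%. The log2 ratios were 4.30 for Col4a1, 4.10 for Col4a2, 2.68 for Nid1, 2.36 for Lamb1, 2.22 for Nid2, 2.17 for Lama5, 2.16 for Sparc and 2.08 for Lamc1. Col23a1 was listed at 0 in Epi, and Col18a1 (-0.40) lay between the limits. In VE over ExE, 9 of 10 genes were also higher, against 9.77% of all genes, and 0 were lower, against 26.6%. Here the ratios were 2.95 for Col4a1, 2.78 for Col4a2, 2.61 for Col23a1, 2.07 for Nid2, 1.99 for Lamb1, 1.62 for Sparc, 1.53 for Lamc1, 1.49 for Lama5 and 1.22 for Col18a1, while Nid1 (-0.38) lay between the limits. Both comparisons share the VE column, and the Epi column is a single sample. All 10 genes reached 5 FPKM in VE. Only 3 did so in Epi (Col18a1, Nid2 and Sparc) and 3 in ExE (Nid1, Nid2 and Sparc). Most genes thus entered through VE, where they were high, so these counts are a description. The median log2 ratio of all genes tested was -0.19 in VE over Epi and -0.49 in VE over ExE.

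**Figure D3:**
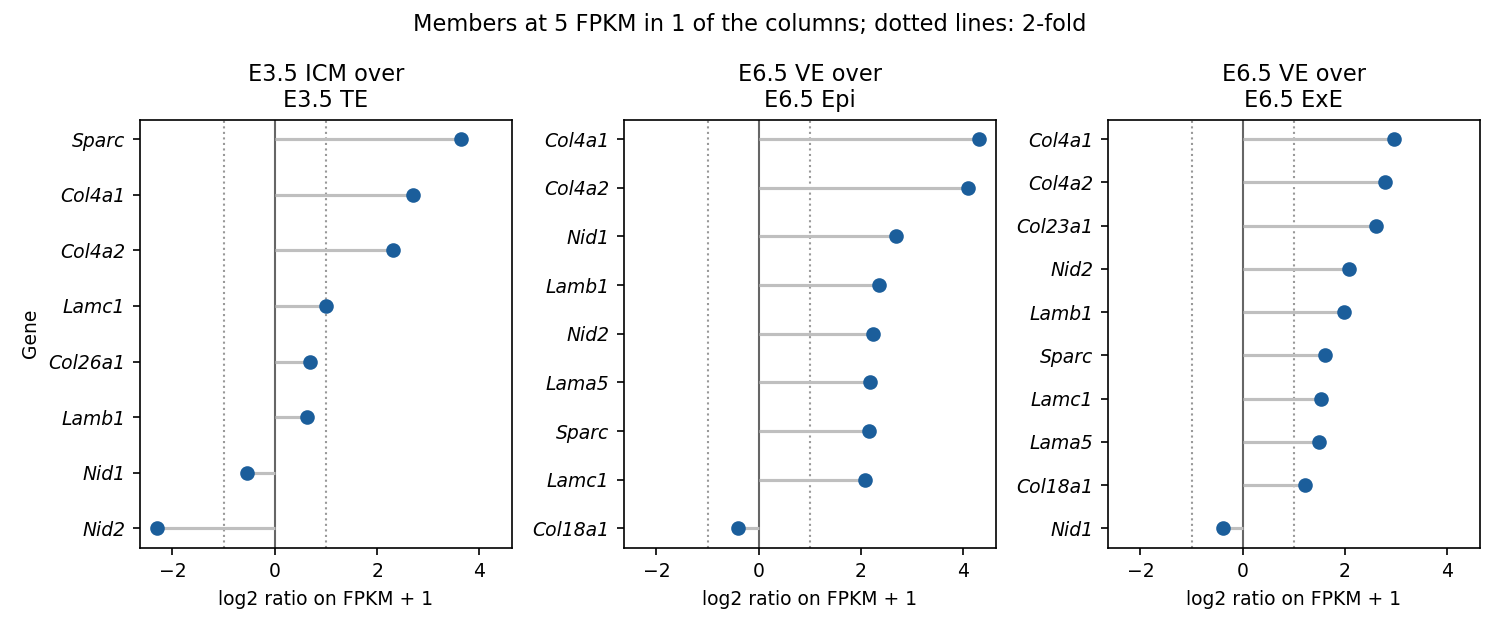
Log2 ratios on FPKM plus 1 of the genes at 5 FPKM or more in 1 of the columns compared, for ICM over TE, VE over Epi and VE over ExE (a point per gene, from pooled columns without error bars); dotted lines mark 2-fold. Col23a1 is not drawn for VE over Epi because it was listed at 0 in Epi; 3, 8 and 9 of the drawn genes lie to the right of the 2-fold line, and Nid2 in ICM over TE is the gene beyond it on the left.

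Visceral endoderm markers were present in the ExE column, and the levels there are given as a percentage of the VE level. All 6 markers were at 1 FPKM or more in ExE, and each was at 6.37% to 10.5% of its VE level (8.66% for the sum). Col23a1 was at 10.01%, Col4a2 at 10.7% and Col4a1 at 10.8% of the VE level in ExE. The other genes held larger shares: Lamb1 21.6%, Nid2 22.0%, Lamc1 30.2%, Lama5 30.9%, Sparc 32.0% and Col18a1 32.9%, and Nid1 was higher in ExE than in VE, at 136%. Epiblast and pluripotency markers (5 genes) were present in the ExE column too, at 319 FPKM, against 582 FPKM in Epi. Most of this was Utf1 (276 FPKM in ExE, 369 in Epi). Tdgf1 was at 21.3 FPKM in ExE and 104 in Epi, and Pou5f1 at 14.0 FPKM in ExE and 79.4 in Epi. Nanog was at 7.35 FPKM in ExE and 9.01 in Epi, and Fgf4 at 0.307 FPKM in ExE and 19.8 in Epi. The part of visceral endoderm or epiblast RNA in the ExE values was not tested. Parietal endoderm markers, which would mark the maker of Reichert's membrane, summed to 12.3 FPKM in VE, 9.42 in ExE and 0.121 in Epi; most of this was Pth1r, Thbd was at 0.0207 FPKM in VE, and Vim was listed at 0. Of 5 decidua markers, which would mark maternal tissue, Bmp2 (16.0 FPKM) and Hoxa10 (3.16 FPKM) were at 1 FPKM or more in VE, and Prl8a2 and Dcn were listed at 0 there. Their part was not tested.

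Of the genes that process or crosslink collagen, Serpinh1, Pxdn and Loxl2 were higher in VE than in both Epi and ExE. Of all genes, 17.7% were higher and 18.7% lower in VE over Epi, and 9.77% were higher and 26.6% lower in VE over ExE. In VE over ICM, 0 of 11 collagen processing genes were higher and 3 were lower, against 16.6% and 30.9% of all genes. In VE over Epi, 4 of 8 collagen processing genes compared were higher and 0 lower, with Serpinh1 at 34.0 FPKM in VE and 1.25 in Epi. In VE over ExE, Serpinh1 (3.77 FPKM in ExE) was the only higher one of 9, with a median log2 ratio of 0.00 over the 9. Of the crosslinking and cleavage genes, 3 of 4 compared were higher in VE than in Epi. Against ExE, 4 of 5 were higher in VE and Bmp1 was lower. The collagen IV crosslinking peroxidasin Pxdn was at 19.0 FPKM in VE, 6.18 in Epi and 3.55 in ExE, and the lysyl oxidase-like gene Loxl2 was at 10.05 FPKM in VE, 0.871 in Epi and 1.75 in ExE. Agrn, a heparan sulphate proteoglycan of basement membranes, was at 18.4 FPKM in VE, 4.21 in Epi and 3.94 in ExE. Of the matrix receptors, 5 of 8 were lower and 0 higher in VE than in ExE, among them the laminin receptor subunit Itga7 (0.0275 FPKM in VE, 5.82 in ExE) and the syndecan Sdc4 (9.15 FPKM in VE, 49.4 in ExE).

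In ExE over Epi, 1 of 4 genes was higher (Nid1, log2 ratio 3.06; 20.0% of all genes) and 1 was lower (Col18a1, -1.62; 6.25% of all genes). Nid2 (0.16) and Sparc (0.54) lay between the limits. Tinagl1 was at 113 FPKM in ExE and 0.0479 FPKM in Epi.

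In yolk sac over VE, 2 of 12 genes were higher, against 8.48% of all genes, and 7 were lower, against 60.2%. The higher genes were Col1a2 (log2 ratio 5.67) and Col3a1, which was listed at 0 in VE. Sparc (-0.16), Col4a1 (-0.83) and Lamb1 (-0.95) lay between the limits. The median log2 ratio of all genes tested was -1.99, and Col4a2, Nid1, Col18a1 and Col23a1 were listed at 0 in the yolk sac, so the count of lower genes is no more than the column's background. Relative to that median, Lamc1 was not lower but at 0.16. The yolk sac column was 1 sample, and Serpinh1 was at 50.5 FPKM in it, against 34.0 FPKM in VE, a difference under 2-fold. Of 9 collagen processing genes compared, 2 were higher and 4 were lower in the yolk sac. Among the lower ones, P4hb was at 54.5 FPKM, against 179 FPKM in VE, and Ppib, Crtap and Plod1 were listed at 0.

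The deletion of XRRa on the paternal X was compared with control females at the morula stage, and the sexes were compared among controls. Of the 59 genes, 57 are autosomal, and the deletion itself was not checked here. None of the 6 genes compared was 2-fold higher or lower in Xp XRRa KO female morulae over control female morulae, against 4.28% of all genes higher and 3.52% lower. Col4a1 was at 5.25 FPKM in Xp XRRa KO, 9.05 in control female and 5.41 FPKM in control male morulae. Lamb1 was at 4.04 FPKM in Xp XRRa KO, 8.41 in control female and 6.38 FPKM in control male morulae. For these genes the Xp XRRa KO column was the lowest of the 3 and the control female column the highest.

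Sparc was at 4.49 FPKM in Xp XRRa KO, 7.28 in control female and 9.01 FPKM in control male morulae. Nid1 was at 8.44 FPKM in Xp XRRa KO, 7.65 in control female and 4.03 FPKM in control male morulae, and Nid2 was at 7.36 FPKM in Xp XRRa KO, 7.70 in control female and 6.09 FPKM in control male morulae. The log2 ratios of Xp XRRa KO over control female morulae were -0.90 for Lamb1, -0.69 for Col4a1, -0.59 for Sparc, -0.27 for Col4a2, -0.06 for Nid2 and 0.13 for Nid1. The largest, that of Lamb1, passed 2-fold only with a pseudocount of 0.1 FPKM in place of 1. Trophectoderm markers, which were all detected, summed to 396 FPKM in Xp XRRa KO, 644 in control female and 1231 FPKM in control male morulae. Krt8, Krt18 and Cdx2 followed this order. Gata3 and Tfap2c did not and were lowest in control females. Gata3 was at 68.9 FPKM in Xp XRRa KO, 51.6 in control female and 91.1 FPKM in control male morulae. Tfap2c was at 45.3 FPKM in Xp XRRa KO, 35.1 in control female and 40.1 FPKM in control male morulae. The part of trophectoderm in the levels of the members was not tested.

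In control female over control male morulae, 0 of 7 genes were called, against 2.73% of all genes higher and 3.0% lower. The log2 ratios ran between -0.60 for Lama5 (4.22 FPKM in females, 6.93 in males) and 0.78 for Nid1. Col26a1, which did not reach 5 FPKM, was at 1.63 FPKM in Xp XRRa KO, 0.756 in control female and 2.84 FPKM in control male morulae. Genes at 1 FPKM or more numbered 9 in Xp XRRa KO, 8 in control female and 12 in control male morulae, and Col5a3 and Col7a1 were among those that reached 1 FPKM in control male morulae but in no stage column. Of the collagen processing list, 0 of 8 genes differed between Xp XRRa KO and control female morulae and 0 of 9 between control females and males. In the first of these comparisons, 4.28% of all genes were higher and 3.52% lower. Of the matrix receptors, the collagen receptor Ddr2 was higher in Xp XRRa KO (5.49 FPKM) than in control female morulae (1.62 FPKM), and the syndecan Sdc1 was higher in control female (8.80 FPKM) than in control male morulae (2.90 FPKM).

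**Figure D4:**
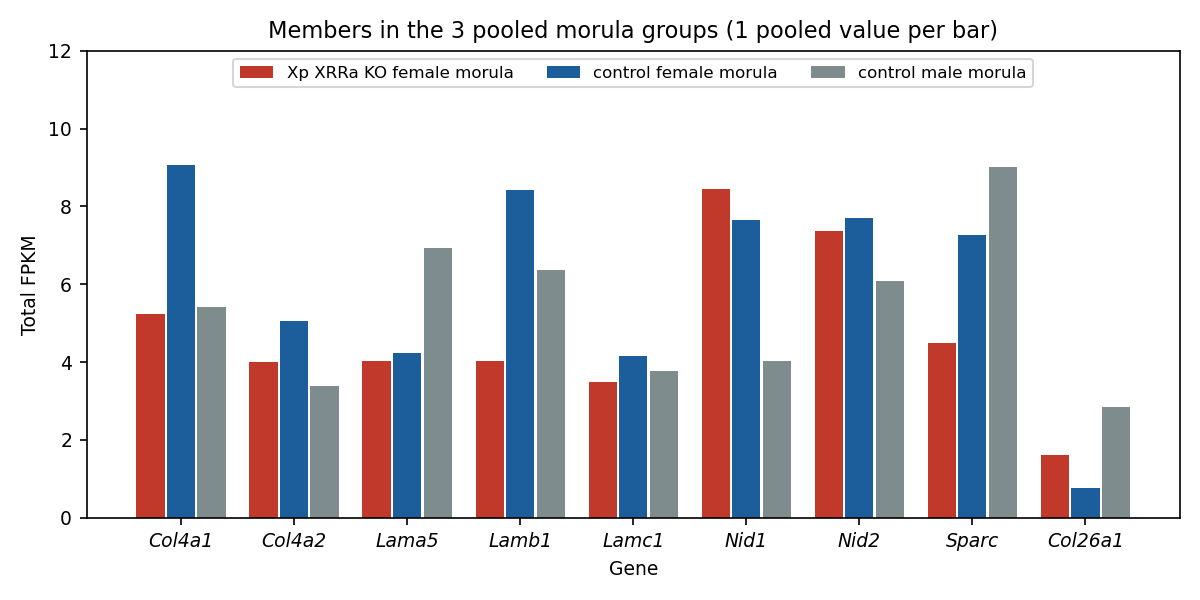
Total FPKM of 9 genes in the morula table, with Xp XRRa KO female, control female and control male morulae as bars from left to right; each bar is 1 pooled value, so there are no error bars. Col4a1 and Lamb1 are highest in control females at 9.05 and 8.41 FPKM, Sparc and Lama5 in control males at 9.01 and 6.93 FPKM, and Nid1 in Xp XRRa KO at 8.44 FPKM.

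The paternal share, the paternal FPKM as a percentage of the total, was taken for genes at a total of 1 FPKM or more. It was available in at least 1 column for 24 of the 59 genes, all autosomal. The median of these genes was within 5 percentage points of that of all autosomal genes in 5 of the 11 columns, namely Epi, VE, ExE, Xp XRRa KO and control female morulae. It was 54.1% in ICM (48.9% over all autosomal genes), 42.5% in TE (48.8%), 50.7% in Epi (49.2%), 47.7% in VE (49.0%) and 47.6% in ExE (49.0%). In the morula table it was 50.6% in Xp XRRa KO (49.3%), 46.5% in control female (49.2%) and 43.6% in control male morulae (49.1%). The morula column of the stage table had 37.6% (47.6%) and the yolk sac 22.2% (50%), and the 8-cell column, with Nid1 alone, had 15.4% (46.9%). In the yolk sac the middle range of autosomal genes ran from 11.1% to 80.0%, against 44.1% to 53.2% in VE, so shares of single genes in that sample carry little weight.

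Nid1 had less paternal than maternal RNA in every column where it could be measured. It had 0.512 paternal FPKM in 8-cell embryos, 6.25 in morula, 3.85 in ICM, 6.67 in TE, 2.36 in VE and 2.56 in ExE, against maternal FPKM of 2.82 in 8-cell embryos, 21.8 in morula, 8.27 in ICM, 11.5 in TE, 3.53 in VE and 5.42 in ExE. The shares were 15.4% in 8-cell embryos, 22.3% in morula, 31.8% in ICM, 36.6% in TE, 40.0% in VE and 32.1% in ExE. In the morula table they were 20.2% in Xp XRRa KO, 15.0% in control female and 31.0% in control male morulae. The median over the 9 columns was 31.0%, and in each column 3.92% to 16.3% of all autosomal genes were at or below Nid1. It was thus in the low part of the range in each column. It ranked lowest in control female (3.92%) and Xp XRRa KO morulae (4.17%).

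No other gene kept a side in so many columns. Lamb1 was below 50% in 7 of 10 columns: 7.08% in morula of the stage table, but 57.9% in ICM, 42.8% in TE, 60.6% in Epi, 50.4% in VE and 46.9% in ExE. Col26a1 was above 50% in the 5 columns where it could be measured, at 70.8% in morula, 90.8% in ICM, 67.1% in TE, 92.7% in Xp XRRa KO and 53.7% in control male morulae. Col9a2 was at 6.54% in morula, its only column. Col4a1 and Col4a2, which share a promoter region, had close shares in ICM (63.7% and 63.9%), VE (46.5% and 47.9%) and ExE (46.2% and 48.9%), the first value being that of Col4a1. Their shares were further apart in the other 4 columns with both genes: 31.5% and 46.7% in morula, 49.2% and 61.7% in Xp XRRa KO, 56.6% and 47.9% in control female and 39.1% and 51.8% in control male morulae. Sparc ran between 32.3% in Epi and 72.1% in Xp XRRa KO morulae.

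**Figure D5:**
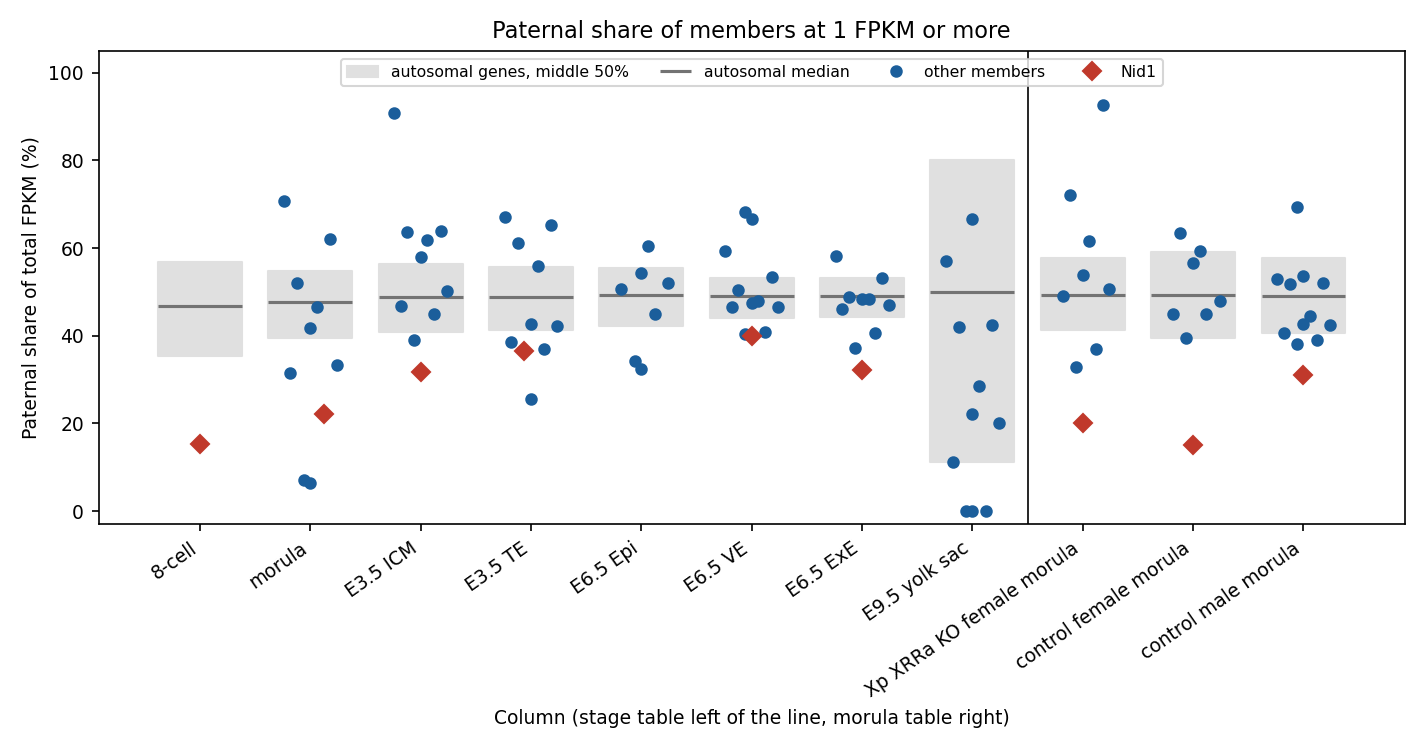
Paternal share of total FPKM for each of the genes at 1 FPKM or more (points; Nid1 as diamonds) in the stage columns and, right of the vertical line, the morula columns; grey boxes span the middle 50% of autosomal genes and the grey lines are their medians. Nid1 lies below 50% in all 9 columns where it was measured, between 15.0% and 40.0%.

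The 2 X-linked genes, Col4a5 and Col4a6, could be followed in single embryos of the EedmNull group. Col4a5 was above 0 in 3 of 13 E7.5 ExE samples, at 0.0523, 0.0967 and 0.0220 FPKM, with a mean of 0.0132 ± 0.0293 FPKM (SD, n = 13). Col4a6 was above 0 in 3 of 13 samples, at 0.0441, 0.0860 and 0.0382 FPKM, with a mean of 0.0129 ± 0.0268 FPKM (SD, n = 13). 2 of these samples had both genes above 0. The only paternal FPKM were in 1 sample, at 0.0967 for Col4a5 and 0.0516 for Col4a6. Neither gene reached the mean of 1 FPKM needed for the limma fit. In a fit without that minimum, the log2 ratio of paternal over maternal FPKM plus 1 was 0.00 for Col4a5 (SE 0.0150, limma adjusted p = 0.918) and -0.01 for Col4a6 (SE 0.0110, limma adjusted p = 0.668). Exact two-sided sign-flip tests over the embryos gave p = 1 for Col4a5 and p = 0.5 for Col4a6, where 3 samples with a value allow no p below 0.25. An allelic difference was not detectable at these levels.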

How the data were processed

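The authors deposited FPKM values with a maternal and a paternal column for each group or embryo. Per the submitters' processing notes the tools were Trim Galore 0.6.4, HISAT2 2.2.0 and StringTie 2.1.1 on the mm9 build; how reads were assigned to alleles is not given in the sources used here. In the stage and morula tables the authors had merged the replicates of a group. Because each table has its own normalization, levels were compared inside 1 table at a time. The EedmNull columns were single embryos. 5 summary lines were left out.

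Totals were maternal plus paternal FPKM. With no replicates, the size rule (5 FPKM in 1 column and 2-fold on FPKM plus 1) stood in place of a test over 13 comparisons. EedmNull ratios were fitted with limma 3.58.1 (R 4.3.3) over all X-linked genes with a mean of at least 1 FPKM, with Benjamini-Hochberg adjustment; the labels do not say whether embryos shared a litter. Alternatives were a pseudocount of 0.1 FPKM, no minimum, ratios centred on the median of all genes, other minimums for shares and each embryo left out. Both procedures were tested on simulated data. Genes were matched to RefSeq by symbol (22705 of 24083) for chromosome and neighbours. The values of 1 gene are not reported here. Members and gene lists were chosen with earlier results of these data known. Genes named were members past the size rule or at 5 FPKM, up to 4 genes per list with the largest ratios, list markers, and others singled out after their values were seen. Depth was unknown, so no interval for counting error was computed. Software was Python 3.11.15 with numpy 2.4.6, pandas 2.3.3, scipy 1.17.1 and matplotlib 3.10.9.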

Additional observations from a re-analysis of the deposited data

How the results depend on the processing

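Without the minimum of 5 FPKM the genes called were 8 in morula over 8-cell, 5 in TE over morula, 9 in ExE over TE, 5 in ExE over Epi, 14 in yolk sac over VE and 1 (Col26a1, lower) in control female over control male morulae. With a pseudocount of 0.1 FPKM, 1 gene (Lamb1, lower) was called in Xp XRRa KO over control female morulae. The shares of all genes called under these alternatives are not given here, so the counts cannot be set against a background. Centred on the median of all genes, the yolk sac over VE ratio turned to 0.16 for Lamc1, and Lama5, Nid2, Nid1 and Col18a1 no longer reached 2-fold there. The median paternal share moved at a minimum of 5 FPKM to 22.3% in morula, 62.0% in ICM, 45.0% in Epi, 37.1% in ExE, 32.1% in yolk sac and 32.9% in Xp XRRa KO morulae, and at 0.1 FPKM to 44.9% in ICM and 39.5% in control female morulae, as the alternatives hold other genes; at 5 FPKM the 8-cell column gave no value. In the EedmNull embryos, neither gene of the X-linked pair entered the limma fit at the minimum of 1 FPKM, with all embryos or with each left out, so they could not be called there. Without the minimum limma called 0 of the 2, and 0 had an unadjusted p below 0.05; their correlation was not run because each was above 0 in 3 embryos. No paired analysis was possible across groups because replicates were pooled in the columns of the stage and morula tables and the EedmNull embryos form a single group; there, the alleles were paired within each embryo. Pooled columns, 1-sample Epi and yolk sac columns and unknown depth limit every comparison above.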

Other observations

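Wild-type female morulae of the same cross stand in both tables, and several of the genes had unlike values in them. The tables were normalized separately, so the levels are set side by side without a ratio. Nid1 was at 28.1 FPKM in morula of the stage table and at 7.65 FPKM in control female morula of the morula table. Col4a1 was at 1.49 FPKM in the stage table and 9.05 FPKM in the morula table, and Col4a2 at 1.15 FPKM in the stage table and 5.05 FPKM in the morula table. The paternal share does not depend on the scaling of a group if both alleles were scaled alike, which the sources used here do not state. For Lamb1 it was 7.08% in the stage table, from 0.181 paternal and 2.37 maternal FPKM, and 44.9% in the morula table, from 3.78 paternal and 4.63 maternal FPKM. For Lamc1 it was 33.3% in the stage table and 63.5% in the morula table. Nid1 was low in both, at 22.3% in the stage table and 15.0% in the morula table.

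The control female morulae had 644 FPKM over the 5 trophectoderm markers in the morula table, and the morulae of the stage table had 216 FPKM. The higher sum came from Krt8 (182 and 29.2 FPKM, control female value first) and Krt18 (367 and 59.8 FPKM). The listed values of Cdx2 (8.19 and 10.4 FPKM), Gata3 (51.6 and 53.2 FPKM) and Tfap2c (35.1 and 63.2 FPKM) were lower in control females. Nid2 was at 7.70 FPKM in control female morulae of the morula table and 3.61 FPKM in morulae of the stage table, and Sparc at 7.28 FPKM in the morula table and 2.81 FPKM in the stage table.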
